A study of Mus musculus with 9 samples.

Results

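The ABC transporters are the genes whose symbol in the count table is Abc followed by a subfamily letter from a to g, a number and, in some, a last letter. This rule found 49 of the 18094 genes in the table. Of these, 42 passed the low-count filter and are among the 15186 genes tested. Whole uteri of female mice at 13 weeks of age were sequenced, 3 mice in each of 3 groups. Tamoxifen+primidone mice were dosed with tamoxifen (1 mg/kg), which binds and modulates the estrogen receptor, on days 1 to 5 of life. From week 10 they were given the anticonvulsant primidone, 2 mg/kg daily, by intraperitoneal injection over 3 weeks. Tamoxifen mice, the study's adenomyosis model, had the same neonatal drug and later injections of vehicle in place of primidone. Control mice had neither drug, but the solvent after birth and the vehicle injections, a treatment spelled vesicle in their labels. The sources used here give no strain, estrous stage or time of day at collection. No group had primidone without tamoxifen, so a primidone effect was measured only in uteri exposed to tamoxifen after birth.

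ABC proteins share an ATP-binding cassette, a domain that binds and hydrolyses ATP. In subfamilies A to D and G this drives lipids, bile salts, peptides, drugs or their conjugates across membranes, or gates an ion channel. Members of the E and F subfamilies have no membrane-spanning domain and act on ribosomes. In the uterus, family members are known for cholesterol efflux, for the release of prostaglandins and cyclic nucleotides, for drug export and for the ATP-sensitive potassium channel of smooth muscle. In a whole organ, fewer cells of a type and less RNA per cell cannot be told apart.

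Of the 42 members tested with edgeR, Abcb5 alone passed in any comparison. In the edgeR test across the 3 groups that is 2.38% of the members, against 3.84% of all genes. DESeq2 called up to 6 of 43 members in a comparison, Abcb5 among them, or 14% against 14.7% of all genes it tested. Neither share was above that of all genes. Abcb5 fell to near the detection limit in both tamoxifen-exposed groups. The promoters of Abcb5 and of Abca3 are shown because Abcb5 carries the edgeR call and Abca3 is an abundant member that edgeR and DESeq2 treat differently, as they do Abcd3. Abcb5 is a drug pump of the B subfamily, known in human skin and cornea. Abca3, known for loading lipid into the lamellar bodies of lung, was the member of the highest level among the membrane transporters. Each sequence runs 5′ to 3′, with the 250 bases before the RefSeq transcription start in lower case and the first 10 bases of the transcript in capitals. They come from RefSeq on build GRCm38.p6, not the authors' build, at chr12:118966412-118966671 on the minus strand for Abcb5 and at chr17:24351773-24352032 on the plus strand for Abca3.
Abcb5: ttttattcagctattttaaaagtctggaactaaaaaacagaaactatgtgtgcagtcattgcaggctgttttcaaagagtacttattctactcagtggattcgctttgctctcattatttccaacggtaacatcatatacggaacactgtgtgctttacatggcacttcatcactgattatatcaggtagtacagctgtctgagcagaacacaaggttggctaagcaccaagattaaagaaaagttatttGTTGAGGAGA
Abca3: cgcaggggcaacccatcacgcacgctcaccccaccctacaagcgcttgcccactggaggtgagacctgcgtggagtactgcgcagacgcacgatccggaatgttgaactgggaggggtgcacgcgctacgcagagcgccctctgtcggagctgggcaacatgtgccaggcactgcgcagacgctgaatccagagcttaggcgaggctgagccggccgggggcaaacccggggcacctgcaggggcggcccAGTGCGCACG
The promoters also differ in base composition. Over the 300 bases that RefSeq gives per promoter, which reach past the printed stretch, G and C made up 38.3% for Abcb5 and 69.7% for Abca3. The median over the same length was 58.8% for 44 promoters of 37 members and 52.7% for all 32851 promoters.

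Levels between genes were compared in FPKM, which is read count scaled for library size and gene length. The family spanned several orders of magnitude. A mean over the 9 libraries of at least 10 FPKM was reached by 10 members, and at least 1 FPKM by 29 members, these 10 among them. Another 7 members lay between 0.1 and 1 FPKM and 13 lay below 0.1 FPKM. The 10 highest carried 74.1% of the family's summed FPKM. Most of them act inside the cell, on ribosomes, peroxisomes or mitochondria.

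Abcf1, which assists translation initiation, had the highest mean level, 43.6 FPKM with a range of 39.9 to 51.3 over the 9 libraries. Abca3 followed at 40.7 FPKM, ranging from 33.6 to 49.6 FPKM. Abce1, the ribosome-recycling ATPase, averaged 32.2 FPKM with a range of 23.8 to 45.1 FPKM. The ranges of these neighbours overlap, so their order is not fixed by these libraries. Abcd3, which carries branched-chain fatty acids into peroxisomes, averaged 28.6 FPKM, and the F subfamily members Abcf2 and Abcf3 averaged 25.0 and 15.1 FPKM. Abca1, the cholesterol and phospholipid exporter, averaged 11.4 FPKM. Abcb8, of the mitochondrial inner membrane, and Abcc1, the exporter of glutathione conjugates and leukotriene C4, averaged 10.7 and 10.5 FPKM. The classical drug pumps stood lower, with 6.13 FPKM for Abcg2, 6.04 FPKM for Abcb1a and 1.22 FPKM for Abcb1b. Abcb5, at 0.433 FPKM, was among the members of low level.

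**Figure D1:**
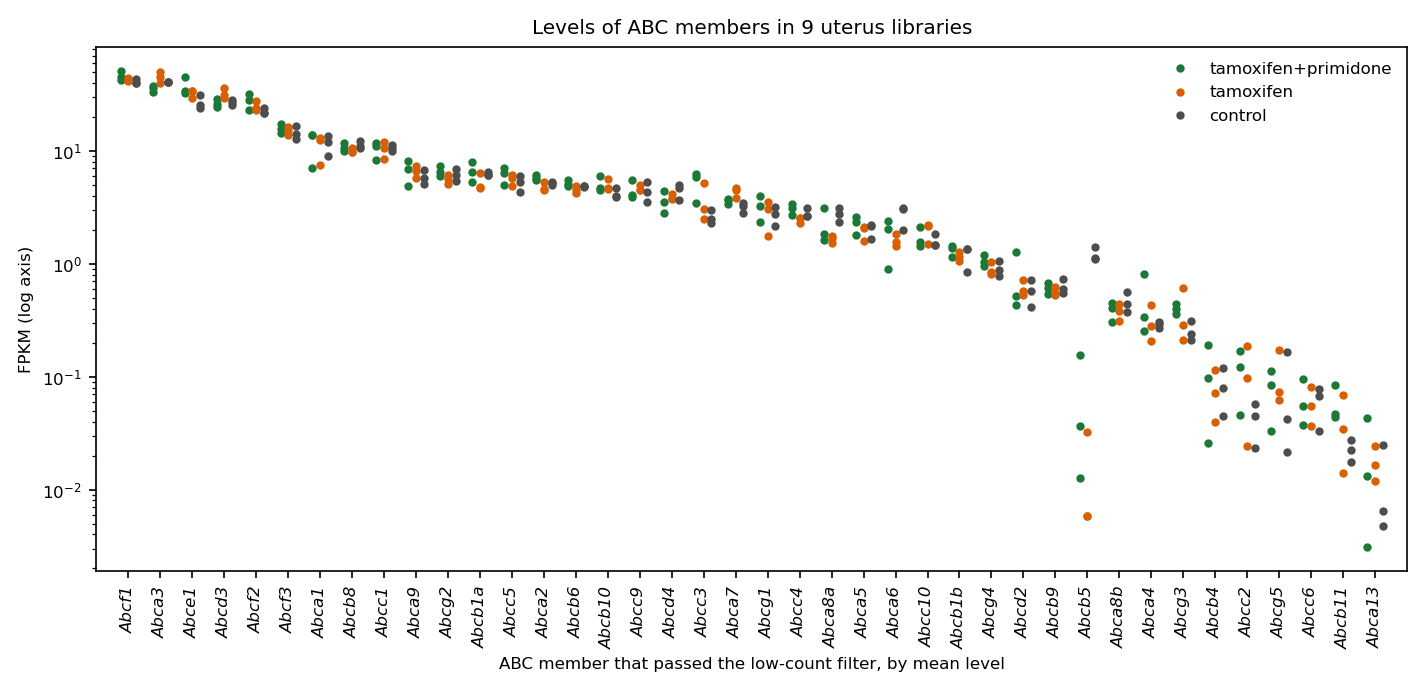
FPKM (log axis) of the reported members that passed the low-count filter, 1 point per library, coloured by group and ordered by mean level. Abcf1, Abca3 and Abce1 lead at 43.6, 40.7 and 32.2 FPKM, and the control points of Abcb5 stand clear above the points of both tamoxifen-exposed groups.

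Summed over all 49 members, the family's level was 314 to 322 FPKM in tamoxifen+primidone uteri and 307 to 322 FPKM in tamoxifen uteri, against 293 to 301 FPKM in control uteri. In FPKM, the sums of both tamoxifen-exposed groups lay above the control sums. By subfamily, Abce1 and the F members averaged 37.3 and 90.0 FPKM in tamoxifen+primidone, 32.4 and 83.2 FPKM in tamoxifen and 26.9 and 77.9 FPKM in control uteri. The B subfamily sum was 34.7 to 37.3 FPKM in tamoxifen+primidone and 31.2 to 33.3 FPKM in tamoxifen uteri, against 34.0 to 36.3 FPKM in control uteri. The D subfamily sum was 40.2 to 43.0 FPKM in tamoxifen+primidone and 44.0 to 50.7 FPKM in tamoxifen uteri, against 43.2 to 46.1 FPKM in control uteri. These sums are descriptions and were not tested. FPKM takes library totals as they stand, without the TMM scaling of library size used for the tests. The TMM factors were 1.0181 to 1.0499 in tamoxifen+primidone, 0.9747 to 0.9964 in tamoxifen and 0.9704 to 0.9969 in control libraries. FPKM therefore sets tamoxifen+primidone values higher beside the other groups than the tests do, and sums on the tests' scale were not taken. On the FPKM scale, the B sum was lower in tamoxifen uteri than in the other groups, and the D sum was lowest in tamoxifen+primidone uteri.

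Changes between groups were tested on the read counts with edgeR's quasi-likelihood test, with p-values adjusted over all 15186 genes and a threshold of 0.05. In tamoxifen against control uteri, 1 of 42 members passed, against 1.53% of all genes tested. That member was Abcb5, which fell, and 0.961% of all genes fell. Between tamoxifen+primidone and control uteri, again 1 of 42 members passed, against 5.35% of all genes, and 3.21% of all genes fell. It was Abcb5 again. The comparisons share the control mice, so they are not separate evidence. DESeq2 called 3 of 43 members in tamoxifen against control uteri, Abca7, Abca8a and Abcb5, against 7.11% of all genes it tested. In tamoxifen+primidone against control uteri it called 3 of 45, Abcb5, Abcc3 and Abcg8, against 11.7% of all genes.

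Looser measures were met by no larger a share of the family than of all genes. At an unadjusted p under 0.05, 6 of 42 members (14.3%) differed between tamoxifen and control uteri, against 17.8% of all genes, and 6 of 42 between tamoxifen+primidone and control uteri, against 23.2% of all genes. Groups stood wholly apart, with no overlap of their 3 values, for 8 of 42 members between tamoxifen and control uteri (19% against 26.1% of all genes). They stood apart for 3 of 42 between tamoxifen+primidone and tamoxifen uteri (7.14% against 16.6%), and for 6 of 42 between tamoxifen+primidone and control uteri (14.3% against 29.1%). Each share of the members was below that of all genes.

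For the addition of primidone, tamoxifen+primidone against tamoxifen uteri, 0 of 42 members passed in edgeR, against 0.0132% of all genes. At an unadjusted p under 0.05 there were 5 members, Abca2, Abca3, Abca7, Abcb5 and Abcd3, or 11.9% of those tested against 13.8% of all genes. DESeq2 called 2 of 40 members in this comparison, Abca3 and Abcd3, against 3.9% of all genes it tested. Both were lower with primidone, as were 2.47% of all genes. The edgeR test across the 3 groups at once passed for Abcb5 (adjusted p = 0.00769) and for 3.84% of all genes. DESeq2's passed for 6 of 43 members, Abca3, Abca7, Abca8a, Abcb5, Abcc3 and Abcd3, and for 14.7% of all genes.

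Across the family, changes were small. The median log2 fold change of the 42 members was 0.02 in tamoxifen against control uteri, while the median of all genes was 0.0. Of the members, 21 of 42 were positive (50%, as of all genes). With primidone added to tamoxifen it was 0.07, with 28 of 42 positive (66.7% against 52.8% of all genes), and 0.02 for all genes. In tamoxifen+primidone against control uteri it was 0.06, with 27 of 42 positive (64.3% against 51.7%), and 0.01 for all genes. Regardless of sign, the median size was 0.15, 0.13 and 0.15 in the same order of comparisons, against 0.17, 0.16 and 0.2 for all genes. An absolute log2 fold change over 0.5 was found in 7, 2 and 8 members, and no share of all genes was taken at this limit. Among the 7 and the 8 were members of very low level, such as Abcc2 at 0.0853 FPKM. By the medians, the sizes of change in the family were near those of the tested genes at large.

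**Figure D2:**
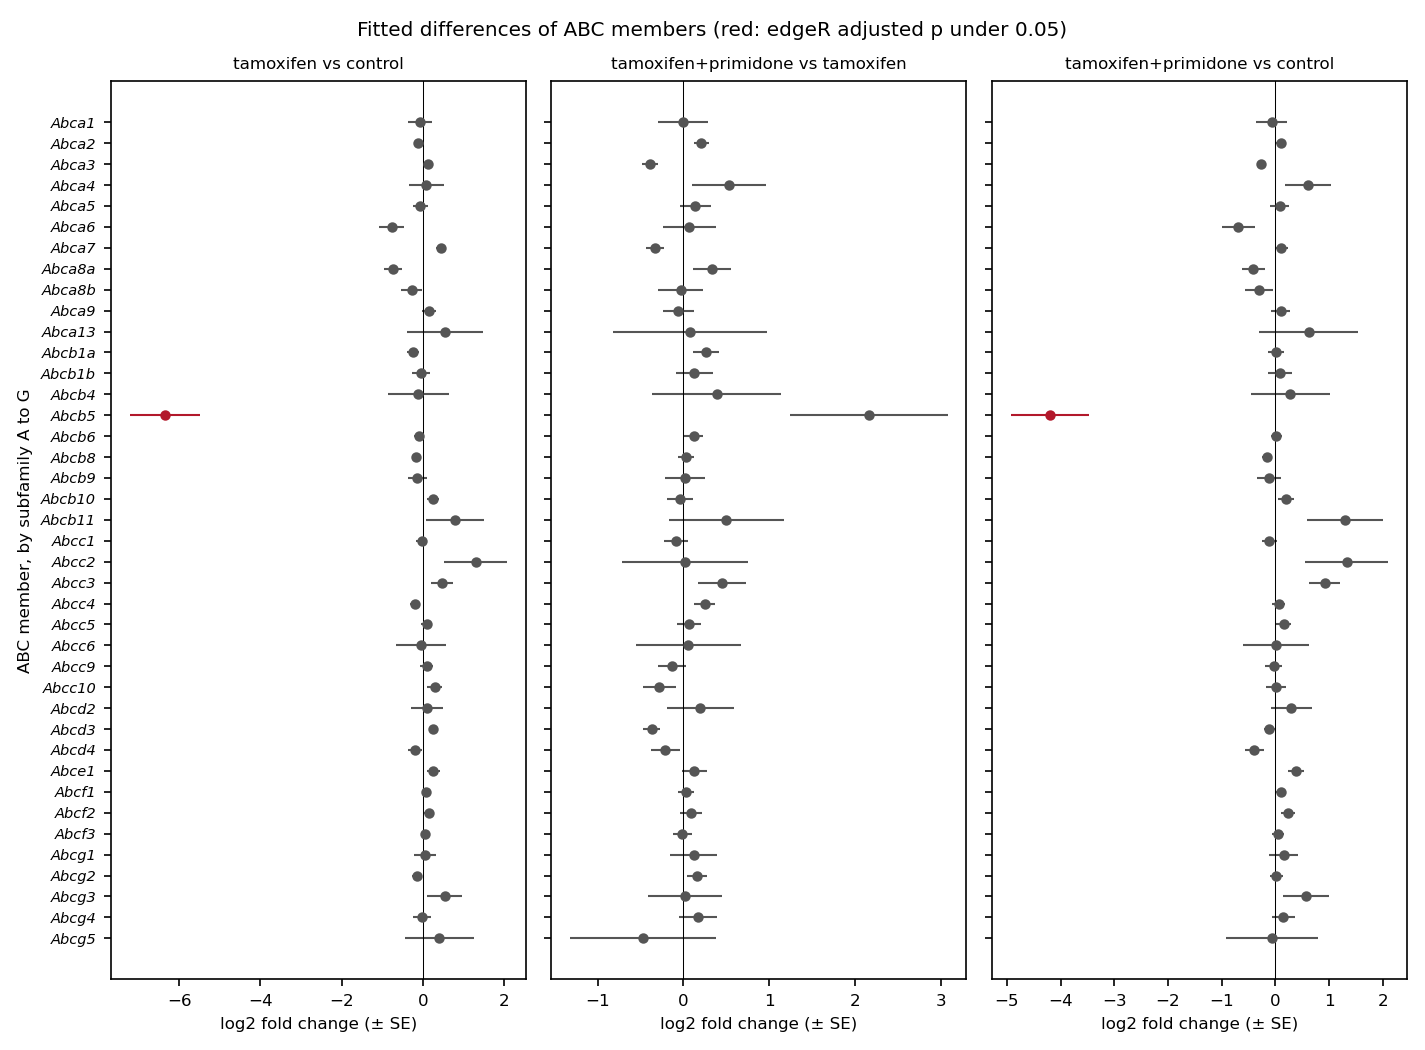
Log2 fold changes of the reported members that were tested, with approximate standard errors, in the 3 comparisons. Most members sit within 0.5 of 0, and Abcb5, at -4.2 in tamoxifen+primidone and -6.35 in tamoxifen against control, lies far outside the rest.

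Abcb5 had 2, 6 and 26 reads in the 3 tamoxifen+primidone uteri and 1, 5 and 1 in the 3 tamoxifen uteri, against 189, 176 and 233 in the 3 control uteri. In CPM, read count scaled for library size, that is 0.0517, 0.152 and 0.654 with tamoxifen+primidone and 0.0257, 0.138 and 0.0256 with tamoxifen, against 4.94, 4.71 and 6.29 in controls. The lowest control uterus stood clear of the highest uterus of either tamoxifen-exposed group. Within the tamoxifen+primidone group, replicate 3 held most of the reads. Abcb5 passed the low-count filter through the control libraries, so a difference was to be found once it was tested at all.

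The mean was 0.286 ± 0.323 CPM in tamoxifen+primidone and 0.063 ± 0.0648 CPM in tamoxifen uteri, against 5.31 ± 0.851 CPM in control uteri (SD, n = 3 each). The log2 fold change was -6.35 ± 0.87 in tamoxifen against control uteri (edgeR adjusted p = 0.0126) and -4.2 ± 0.73 in tamoxifen+primidone against control uteri (edgeR adjusted p = 0.0154). At so few reads the fitted values lean on the prior count. From the summed reads alone, scaled for library size, the ratio taken as control over tamoxifen was 86.7, from 7 reads against 598, with an exact 95% interval of 41.8 to 217.0. The ratio of control over tamoxifen+primidone was 18.4, from 34 reads against 598, with an interval of 13.0 to 26.8. Both intervals cover counting error only.

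Between tamoxifen+primidone and tamoxifen uteri, Abcb5 had a log2 fold change of 2.16 ± 0.92, which did not pass (edgeR adjusted p = 0.338), and the ranges overlap. The fall against control kept its direction in 20 of 20 alternative settings in both comparisons, all of which reuse these libraries. The tamoxifen call was lost without control replicate 1 (edgeR adjusted p = 0.0571), control replicate 3 (0.0511), tamoxifen replicate 1 (0.0571) or tamoxifen replicate 3 (0.0582). The tamoxifen+primidone call was lost without control replicate 1 (0.0562) or control replicate 3 (0.0592). In RefSeq, 0 other genes overlap Abcb5. Other members do overlap a protein-coding gene, so their reads may include those of the neighbour: Abca3 and Abca17 overlap each other, as do Abcg5 and Abcg8, Abcb1a overlaps Rundc3b, Abcb8 overlaps Cdk5, Abcc10 overlaps Dlk2 and Abce1 overlaps Anapc10. Abca3 also overlaps the noncoding gene D330041H03Rik.

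Cell type markers were read beside it. The summed CPM of 10 smooth muscle markers was 5920 to 7340 in tamoxifen+primidone and 6300 to 7580 in tamoxifen uteri, against 7560 to 12100 in control uteri. For 8 mast cell markers, 7 of them in the table, it was 14.1 to 28.4 CPM with tamoxifen+primidone and 16.0 to 19.8 CPM with tamoxifen, against 24.7 to 31.2 CPM in controls. For 10 endometrial stroma markers it was 4560 to 4900 CPM with tamoxifen+primidone and 4520 to 5070 CPM with tamoxifen, against 3360 to 4080 CPM in controls. None of these markers that the table holds was at 0 in every library. Their part in the Abcb5 result was not tested.

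**Figure D3:**
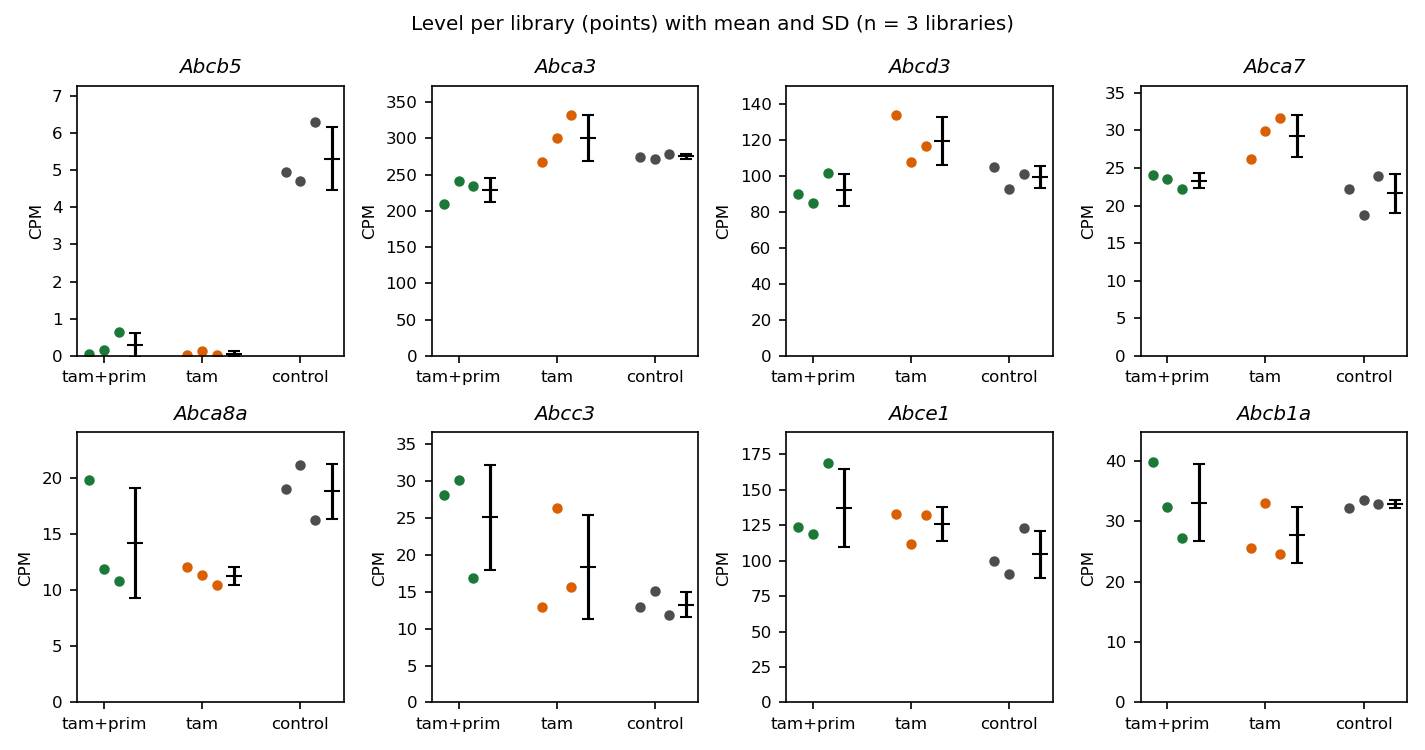
CPM of selected members in each library (points), with the mean and SD of each group of 3 uteri. Abcb5 lies at or below 0.654 CPM in both tamoxifen-exposed groups and at 4.71 CPM or above in control uteri, and SD bars are drawn from 0 where they would pass below it (tam, tamoxifen; prim, primidone).

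Lipid transporters of the A subfamily were among the members with the next smallest p-values. In tamoxifen+primidone against control uteri, Abcc3 stood between Abcb5 and Abca3, and with added primidone Abcd3 came next after Abca3. Abca3 was at 210, 241 and 235 CPM in tamoxifen+primidone uteri and at 268, 301 and 332 CPM in tamoxifen uteri, against 275, 272 and 279 CPM in control uteri. All 3 tamoxifen+primidone uteri were below every uterus of both other groups. The log2 fold change was -0.39 ± 0.09 against tamoxifen (edgeR adjusted p = 0.135, DESeq2 adjusted p = 0.00933) and -0.26 ± 0.09 against control (edgeR adjusted p = 0.124).

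Abca7, a phospholipid transporter of phagocytes and brain, was at 24.1, 23.6 and 22.2 CPM in tamoxifen+primidone uteri and at 26.2, 29.9 and 31.6 CPM in tamoxifen uteri, against 22.2, 18.8 and 23.9 CPM in control uteri. The tamoxifen uteri were above all uteri of the other groups. The log2 fold change of tamoxifen against control was 0.44 ± 0.12 and did not pass in edgeR (adjusted p = 0.0929), though it did in DESeq2 (adjusted p = 0.019). With primidone added it was -0.33 ± 0.11 (edgeR adjusted p = 0.249).

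Abca8a and Abca6 belong to the Abca5-like cluster of lipid transporters. Abca8a was at 19.8, 11.9 and 10.8 CPM in tamoxifen+primidone uteri and at 12.0, 11.3 and 10.4 CPM in tamoxifen uteri, against 19.0, 21.1 and 16.2 CPM in control uteri. Its log2 fold change of tamoxifen against control was -0.74 ± 0.22 (edgeR adjusted p = 0.115, DESeq2 adjusted p = 0.025). It passed edgeR with only the 2 groups compared (adjusted p = 0.0268) or without tamoxifen+primidone replicate 1 (adjusted p = 0.0247), the replicate that stood apart from its group. Abca6 was at 18.5, 15.9 and 7.17 CPM in tamoxifen+primidone uteri and at 12.9, 15 and 11.8 CPM in tamoxifen uteri, against 25.4, 25.3 and 16.6 CPM in control uteri, and its change of -0.77 ± 0.31 with tamoxifen did not pass (edgeR adjusted p = 0.246). The tamoxifen uteri were below the control uteri for both genes. Abca2, a lysosomal lipid transporter known from myelin, was at 54.3, 61.2 and 58.5 CPM in tamoxifen+primidone uteri and at 47.9, 47.7 and 55.2 CPM in tamoxifen uteri, with 55.5, 51.5 and 55.5 CPM in control uteri. Its change with added primidone was 0.21 ± 0.09 (edgeR adjusted p = 0.333).

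The sterol exporters showed little difference between groups. Abca1 was at 137, 139 and 73 CPM in tamoxifen+primidone uteri and at 134, 136 and 79.6 CPM in tamoxifen uteri, against 128, 141 and 96.9 CPM in control uteri. Replicate 3 was the lowest of each group, and the log2 fold changes were -0.07 ± 0.29 in both comparisons with control. Abcg1, which passes cholesterol to high-density lipoprotein, was at 18, 22.4 and 13.5 CPM in tamoxifen+primidone uteri and at 21.1, 18.1 and 10.6 CPM in tamoxifen uteri, against 18.9, 16.3 and 13.1 CPM in control uteri. Here too replicate 3 was the lowest of each group.

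Their partners and the targets of LXR, the sterol-sensing receptor that drives Abca1 and Abcg1, were looked at as a list of 19 genes. Of these, 1 rose and 0 fell in tamoxifen against control uteri, and 3 rose and 0 fell in tamoxifen+primidone against control uteri, with 0 called for primidone added to tamoxifen. Apoa1, the main protein of high-density lipoprotein, averaged 17.3 ± 0.829 CPM in tamoxifen+primidone and 9.5 ± 3.88 CPM in tamoxifen uteri, against 3.92 ± 0.28 CPM in control uteri (SD, n = 3 each). It rose by 2.14 ± 0.25 on the log2 scale with tamoxifen+primidone (edgeR adjusted p = 0.00397) and by 1.28 ± 0.24 with tamoxifen (edgeR adjusted p = 0.0378). Nr1h3, which encodes LXR alpha, rose by 0.74 ± 0.16 with tamoxifen+primidone against control (edgeR adjusted p = 0.0311), and the apolipoprotein gene Apoc1 by 1.7 ± 0.4 (edgeR adjusted p = 0.0412). The 3 calls became 1, that of Apoa1, without any one of the control libraries or without tamoxifen+primidone replicate 2. The Nr1h3 call was also lost without tamoxifen+primidone replicate 1, and the Apoc1 call without tamoxifen replicate 1 or tamoxifen+primidone replicate 3, at edgeR adjusted p-values of up to 0.106 for Nr1h3 and 0.132 for Apoc1. The Apoa1 call with tamoxifen was lost without any one of the control libraries, tamoxifen replicate 1 or tamoxifen replicate 3 (edgeR adjusted p of up to 0.13). Apoa1 is also in the list of hepatocyte markers, whose sum moved the same way, as given with the bile transporters.

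The peroxisomal D subfamily had no edgeR call. Abcd3 was at 89.9, 85.0 and 102 CPM in tamoxifen+primidone uteri and at 134, 108 and 117 CPM in tamoxifen uteri, against 105, 92.9 and 101 CPM in control uteri. The tamoxifen uteri were above all others, and the log2 fold change with added primidone was -0.37 ± 0.1 (edgeR adjusted p = 0.177, DESeq2 adjusted p = 0.0414). Tamoxifen against control gave 0.26 ± 0.1 (edgeR adjusted p = 0.215).

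Abcd2, another carrier of peroxisomal fatty acids, was low, at 0.639 FPKM, and Abcd4, which exports cobalamin from lysosomes, averaged 3.99 FPKM. Among 17 genes of peroxisomal fatty acid oxidation and assembly, 1 passed: Ehhadh, an enzyme of the pathway, fell by 0.78 ± 0.18 on the log2 scale in tamoxifen+primidone against control uteri (edgeR adjusted p = 0.0357). That call was lost without any one of the control or tamoxifen+primidone libraries or without tamoxifen replicate 1, at an edgeR adjusted p of up to 0.125.

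Markers of several cell types are given beside Abca3, Abcd3 and Abca7. The summed CPM of 12 uterine epithelium markers was 4070 to 4790 in tamoxifen+primidone and 5620 to 5910 in tamoxifen uteri, against 5480 to 5870 in control uteri. With tamoxifen+primidone against control, 3 of the 12 fell, Cldn4, Elf3 and Esrp1, and 0 rose. The 3 became 1 without any one of the control libraries, tamoxifen+primidone replicate 1 or tamoxifen+primidone replicate 2. With added primidone, 0 of 12 passed and the list's median log2 fold change was -0.36. All 12 passed the low-count filter, so none was at 0 in every library. For 8 pericyte and vascular mural markers, all tested, the sum was 384 to 430 CPM in tamoxifen+primidone and 457 to 509 CPM in tamoxifen uteri, against 378 to 439 CPM in control uteri. For 8 ovary and oviduct markers, 6 of them in the table, it was 10.7 to 22.8 CPM in tamoxifen+primidone and 73.0 to 276 CPM in tamoxifen uteri, against 22.0 to 53.8 CPM in control uteri. Both sums, like Abcd3 and Abca7, were above all others in the tamoxifen uteri. No marker of either list passed between tamoxifen and control or with added primidone. Of the ovary and oviduct markers, 4 were tested. Their median log2 fold change was 0.14 in tamoxifen against control, with 3 of 4 positive, and -1.12 with added primidone, with 2 of 4 positive. That sum therefore does not speak for each gene of its list. The part of these cell types in the Abca3, Abcd3 and Abca7 values was not tested.

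The drug pumps known from cancer therapy showed no call. Abcb1a, one of a pair of mouse P-glycoprotein genes, was at 39.8, 32.3 and 27.2 CPM in tamoxifen+primidone uteri and at 25.6, 33.0 and 24.5 CPM in tamoxifen uteri, against 32.2, 33.6 and 32.9 CPM in control uteri. The groups overlap, and the log2 fold changes were -0.25 ± 0.15 with tamoxifen (edgeR adjusted p = 0.426) and 0.26 ± 0.15 with primidone added (edgeR adjusted p = 0.489). Abcb1b, the other one, was at 6.75, 6.51 and 5.51 CPM in tamoxifen+primidone uteri and at 5.75, 6.18 and 5.24 CPM in tamoxifen uteri, against 6.74, 4.15 and 6.75 CPM in control uteri. In FPKM, Abcb1a exceeded Abcb1b by a ratio of 4.98 ± 0.516 in tamoxifen+primidone, 4.56 ± 0.444 in tamoxifen and 5.59 ± 1.78 in control uteri (SD, n = 3 each). The 2 genes are close paralogs, so reads may be split between them. Abcg2, the breast cancer resistance protein, was at 25.9, 23.1 and 21.7 CPM in tamoxifen+primidone uteri and at 21.5, 22.8 and 19.1 CPM in tamoxifen uteri, against 26.1, 20.3 and 23.3 CPM in control uteri, so the groups overlap.

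Among the C subfamily exporters, Abcc3, which moves glucuronide conjugates across the basolateral membrane, had the smallest p. It was at 28.1, 30.2 and 16.9 CPM in tamoxifen+primidone uteri and at 13.0, 26.3 and 15.7 CPM in tamoxifen uteri, against 12.9, 15.1 and 11.8 CPM in control uteri. All tamoxifen+primidone uteri were above the control uteri, while tamoxifen replicate 2 stood apart from its group. The log2 fold change of tamoxifen+primidone against control was 0.92 ± 0.29, which did not pass in edgeR (adjusted p = 0.0945) but did in DESeq2 (adjusted p = 0.0137) and in edgeR without tamoxifen replicate 2 (adjusted p = 0.0419).

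Abcc1 was at 63.3, 68.5 and 49.0 CPM in tamoxifen+primidone uteri and at 52.8, 73.2 and 65.9 CPM in tamoxifen uteri, against 65.7, 67.9 and 61.9 CPM in control uteri. Abcc4, which exports cyclic nucleotides and prostaglandins, was at 27.2, 23.7 and 30.6 CPM in tamoxifen+primidone uteri and at 23.8, 21.2 and 23.7 CPM in tamoxifen uteri, against 25.0, 24.1 and 29.2 CPM in control uteri. For Abcc4 the tamoxifen uteri lay just below the control uteri, and its change of -0.19 ± 0.12 did not pass (edgeR adjusted p = 0.459). Abcc9, the sulfonylurea receptor of the smooth muscle and pericyte potassium channel, was at 42.5, 30.6 and 32 CPM in tamoxifen+primidone uteri and at 37.3, 36.8 and 40.7 CPM in tamoxifen uteri, against 35.7, 42.6 and 29.3 CPM in control uteri. The Abcc9 groups overlap. Kcnj8, the pore subunit tested with it, did not pass in any comparison. Its log2 fold change was -0.06 in tamoxifen against control, -0.31 with added primidone and -0.37 in tamoxifen+primidone against control. The summed level of the pore genes Kcnj8 and Kcnj11 was 26.1 to 28.6 CPM in tamoxifen+primidone and 29.2 to 36.7 CPM in tamoxifen uteri, against 29.5 to 42.5 CPM in control uteri.

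Of 24 tested genes, from a list of 28, of xenobiotic sensing and drug conjugation, the partners of these pumps, 0 passed in any comparison. Their median log2 fold changes were -0.08 with tamoxifen against control, -0.03 with primidone added and -0.08 with tamoxifen+primidone against control. With added primidone, only 0.0132% of all genes passed, so a count of 0 in this list says little. The summed level of the list was 1270 to 1350 CPM in tamoxifen+primidone and 1380 to 1480 CPM in tamoxifen uteri, against 1350 to 1460 CPM in control uteri. The tamoxifen+primidone sums lay below the tamoxifen sums.

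Clock factors bear on the family because the D-box factors Dbp, Tef and Hlf and their rival Nfil3 are known to act on Abcb1a in mouse intestine. Of 17 clock and D-box genes, 2 rose and 8 fell in tamoxifen against control uteri, and 3 rose and 10 fell in tamoxifen+primidone against control uteri. The 8 became 2 without tamoxifen replicate 1, and the 10 became 5 without control replicate 1. Tef averaged 41.4 ± 13.6 CPM in tamoxifen+primidone and 36.8 ± 3.89 CPM in tamoxifen uteri, against 129 ± 11 CPM in control uteri (SD, n = 3 each). It fell by 1.81 ± 0.2 on the log2 scale with tamoxifen (edgeR adjusted p = 0.00723), and Hlf fell by 1.91 ± 0.33 (edgeR adjusted p = 0.0297). Nfil3 rose by 1.58 ± 0.26 (edgeR adjusted p = 0.024). The Hlf call was lost without any one of the control or tamoxifen libraries (edgeR adjusted p of up to 0.096). The Nfil3 call was lost without replicate 1 or 3 of either of these groups (edgeR adjusted p of up to 0.0914). Abcb1a, as given above, did not pass in any comparison. The 9 uteri therefore show D-box factors that fell and an Abcb1a level whose group ranges overlap.

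The promoters of the family were searched for motifs on both strands in the 300 bases RefSeq gives per promoter. The D-box, searched as TTATGTAA or TTACGTAA, was in 0 of 44 member promoters and in 1.06% of all promoters. The E-box CACGTG, which the clock and other factors bind, was in 5 member promoters, those of Abca1, Abca8a, Abca8b, Abcc4 and Abcf1, and in 7.15% of all. The core of the antioxidant response element, TGACNNNGC, was in 7 member promoters of Abca8b, Abcb1a, Abcc10, Abcc2 and Abcc4, and in 12.4% of all. The form searched as the estrogen response element was in 0 member promoters and 0.07% of all. The form searched as the LXR element of the DR4 type was in 0 and 0.0152%. The letters of these forms are not given here, and each element can vary in its letters. A count of 0 therefore does not show that a promoter, that of Abca1 among them, lacks the element. Neither printed promoter held a match to the forms searched, and matches elsewhere are descriptions of sequence, not sites of binding.

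The members that act on ribosomes had no call. Abce1 was at 124, 119 and 169 CPM in tamoxifen+primidone uteri and at 133, 112 and 132 CPM in tamoxifen uteri, against 100, 90.9 and 123 CPM in control uteri, and its change of 0.39 ± 0.15 with tamoxifen+primidone against control did not pass (edgeR adjusted p = 0.158). Abcf1 was at 135, 130 and 159 CPM in tamoxifen+primidone uteri and at 140, 132 and 143 CPM in tamoxifen uteri, against 129, 137 and 130 CPM in control uteri. The groups overlap for both genes. Abcf2 was at 67.7, 82.5 and 95.8 CPM in tamoxifen+primidone uteri and at 75.5, 70.1 and 85.5 CPM in tamoxifen uteri, against 67.8, 66.2 and 74.8 CPM in control uteri. Abcf3 was at 49.5, 45.6 and 55.5 CPM in tamoxifen+primidone uteri and at 51.6, 45.6 and 54.7 CPM in tamoxifen uteri, against 47.2, 54.6 and 43.5 CPM in control uteri. Of 13 partners in ribosome recycling and translation, 0 passed in any comparison, with medians of 0.12 for tamoxifen against control, 0.07 for added primidone and 0.13 for tamoxifen+primidone against control.

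The mitochondrial transporters of the B subfamily had no call either. Abcb8 was at 30.0, 33.6 and 29.0 CPM in tamoxifen+primidone uteri and at 29.8, 29.0 and 32.1 CPM in tamoxifen uteri, against 33.4, 36.6 and 32.3 CPM in control uteri. The tamoxifen uteri were just below the control uteri, without a call. Abcb10, needed for heme synthesis in red cell precursors, averaged 22.2 ± 3.85 CPM in tamoxifen+primidone, 22.8 ± 2.59 CPM in tamoxifen and 19.3 ± 2.25 CPM in control uteri (SD, n = 3 each). Abcb6, a porphyrin transporter, averaged 15.4 ± 0.926, 14.1 ± 0.955 and 15.1 ± 0.416 CPM in the same groups. Of 23 mitochondrial iron-sulfur and heme genes, 0 passed in any comparison.

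The transporters known for bile in liver were at the bottom of the scale. Abcb11, the bile salt export pump, was at 0.259, 0.481 and 0.252 CPM in tamoxifen+primidone uteri and at 0.205, 0.0827 and 0.409 CPM in tamoxifen uteri, against 0.105, 0.161 and 0.135 CPM in control uteri. All tamoxifen+primidone uteri were above the control uteri, but the log2 fold change of 1.29 ± 0.71 did not pass (edgeR adjusted p = 0.305). Abcc2, the canalicular conjugate exporter, averaged 0.605 ± 0.33 CPM in tamoxifen+primidone, 0.593 ± 0.471 CPM in tamoxifen and 0.239 ± 0.0951 CPM in control uteri (SD, n = 3 each), and its change of 1.33 ± 0.77 in tamoxifen+primidone against control did not pass (edgeR adjusted p = 0.332).

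Hepatocyte markers stood beside these values. The summed CPM of 20 such genes was 458 to 534 in tamoxifen+primidone and 239 to 464 in tamoxifen uteri, against 153 to 207 in control uteri. Of the 20, 16 rose in tamoxifen+primidone and 5 rose in tamoxifen uteri against control, and 0 fell in either. The 16 became 5 without control replicate 1, and the 5 became 0 without any one of the control libraries. None of the 20 was at 0 in every library. For 9 bile acid and canalicular liver genes the sum lay the other way. It was 151 to 204 CPM in tamoxifen+primidone and 156 to 239 CPM in tamoxifen uteri, against 233 to 245 CPM in control uteri. Of these genes 5 were tested and 0 passed in any comparison. Their median log2 fold change in tamoxifen+primidone against control was 1.52, with 3 of 5 positive. The part of either list in the values of the bile transporters and of Apoa1 was not tested.

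The 7 members below the low-count filter were Abca12, Abca14, Abca16, Abca17, Abcc8, Abcc12 and Abcg8. Abcg8, which pairs with Abcg5 to export sterols, had 8, 5 and 8 reads in tamoxifen+primidone uteri and 1, 6 and 1 in tamoxifen uteri, against 0, 0 and 0 in control uteri. Taking 3 reads over the control group as the limit of a count of 0, Abcg8 was 6.69-fold or more higher in tamoxifen+primidone and 2.63-fold or more in tamoxifen uteri. These values take the reads of the tamoxifen-exposed groups as exact, leaving out their counting error and the spread between mice. Of the 8 tamoxifen reads, 6 were in replicate 2. Abcc8, a sulfonylurea receptor of pancreas and brain, had 3, 12 and 16 reads in tamoxifen+primidone uteri and 4, 9 and 1 in tamoxifen uteri, against 1, 1 and 1 in control uteri. The ratio of tamoxifen+primidone over control was 9.87 for Abcc8, with an exact 95% interval of 3.08 to 50.5 that covers counting error only.

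Abcc12 had 3, 8 and 10 reads in tamoxifen+primidone uteri and 0, 5 and 1 in tamoxifen uteri, against 1, 0 and 0 in control uteri, a ratio of tamoxifen+primidone over control of 20.1 with an interval of 3.23 to 830.0. For Abcg8, Abcc8 and Abcc12, every tamoxifen+primidone uterus held more reads than any control uterus, at levels too low for the edgeR test. Abca12, the keratinocyte lipid transporter, had 1, 0 and 0 reads in tamoxifen+primidone uteri and 1, 5 and 0 in tamoxifen uteri, against 2, 4 and 6 in control uteri. For Abca12, every tamoxifen+primidone uterus held fewer reads than any control uterus. Of all genes tested, 29.1% did not overlap in this comparison, and no share was taken for genes below the filter. Abca14, Abca16 and Abca17, which are mouse A subfamily genes, had at most 7 reads in any uterus.

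**Figure D4:**
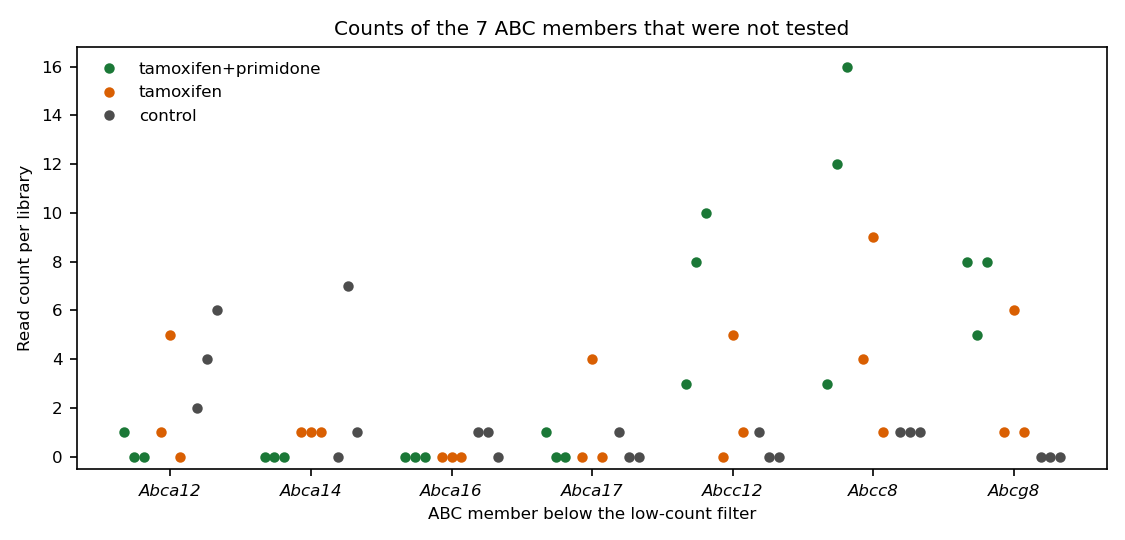
Read counts per library of the 7 members below the low-count filter, by group. Abcg8 had 5 to 8 reads in tamoxifen+primidone uteri and 0 in each control uterus, and no library had more than 16 reads for any of these genes.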

How the data were processed

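Whole-uterus RNA of 9 mice was sequenced, 3 mice in each of 3 groups, and each library was put in its group by its label. The submitters' processing notes name HISAT2, HTSeq, DESeq2 and R 3.2.0, with build GRCm39. Annotation and strand setting are not given in the sources, so reads of overlapping or antisense genes cannot be told apart. The deposited values are raw whole-number counts for each gene symbol, and FPKM values that the authors computed for the same genes. Library totals ran from 36393120 to 39958443 counts. Libraries of the same group differed by more than counting noise (chi-square per degree of freedom of 19.57 to 78.47 over 9 pairs), so none was treated as a repeat deposit of another; that they come from separate mice rests on the study's design text.

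Counts were tested in R 4.3.3 with edgeR 4.0.16, with TMM scaling, filterByExpr by group as the low-count filter, a robust quasi-likelihood fit of all 9 libraries, two-sided tests and Benjamini-Hochberg adjustment over 15186 genes. Log2 fold changes are given with an approximate standard error, which is the absolute log2 value over the root of its F statistic. CPM values use the TMM-scaled library sizes. Alternatives were DESeq2 1.42.0, limma 3.58.1 on the counts and on log2(FPKM + 1) or log2(FPKM + 0.1), other scalings, other filters, a replicate block, a fit of 2 groups only, and leaving out each library.

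Members named in full were those past the threshold, the 5 smallest p-values of each comparison, the 10 highest in FPKM and a fixed list of well-known members; Abca6, Abcb6, Abcb10, Abcb11, Abcc2, Abcd2 and Abcd4 and the untested members were added after their values were seen. Single values of some members are not reported here, though counts over the family include them. The members and the lists were chosen with earlier results of these data known, among them the fall of Abcb5, which is no independent support. RefSeq matched all 49 members by symbol, and promoters were found for 37 of them.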

Additional observations from a re-analysis of the deposited data

How the results depend on the processing

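The counts of members called by edgeR, 1 in tamoxifen against control, 0 for added primidone, 1 in tamoxifen+primidone against control and 1 for any difference, differed in 7, 1 and 6 of 20 settings and in 2 of 19, in that order. DESeq2 called 3, 2, 3 and 6 in that order, and a fit of 2 groups only called 2 in tamoxifen against control. Leaving out each library gave 0 to 2, 0, 0 to 2 and 1 to 2. The replicate block gave 1, 0, 3 and 1, adding Abcc3 (adjusted p = 0.0369) and Abce1 (0.0455) in tamoxifen+primidone against control. The sources do not say that the numbers pair the mice. The 9 pairs of libraries with the same number correlated from -0.134 to 0.177, 3 of them over 0.1. The 18 pairs with different numbers correlated from -0.291 to 0.158, also with 3 over 0.1. Not every library correlated best with its own number, and correlations this weak cannot decide whether the numbers mark a pairing. The cause of the differences in calls between settings was not tested.

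The fitted fall of Abcb5 ranged from -7.52 to -1.12 with tamoxifen and from -5.65 to -1.05 with tamoxifen+primidone, the smallest on the log2(FPKM + 1) scale, where the pseudocount shrinks the change of genes of low level. The test of any difference kept Abcb5 in 19 of 19 settings, all of which reuse the same libraries. Abcb5 passed the low-count filter through the control libraries and was chosen with its fall known, so this count is no independent support. Under these alternatives no called result changed direction. For related genes, whose alternatives were chosen after seeing the data, calls changed more: of 20 settings, Nr1h3 kept its call in 14, Apoc1 in 12, Ehhadh in 13 and Cftr in 7, all against control with tamoxifen+primidone, and Apoa1 in 13 with tamoxifen and 20 with tamoxifen+primidone. With tamoxifen, Tef kept it in 20, Hlf in 14 and Nfil3 in 16. Other scalings moved the median of all genes by at most 0.035 on the log2 scale, with 38 to 42 of 42 members keeping their sign. Depth limits the members under 0.1 FPKM, where a few reads decide a value.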

Other observations

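Genes of the ABC family that carry other symbols lie outside the rule. Cftr, the chloride channel of epithelia, was at 51.5, 46.8 and 62.3 CPM in tamoxifen+primidone uteri and at 80.2, 79.7 and 74.2 CPM in tamoxifen uteri, against 64.8, 80.4 and 78.6 CPM in control uteri. All tamoxifen+primidone uteri were below all others. It fell by 0.48 ± 0.12 on the log2 scale in tamoxifen+primidone against control (edgeR adjusted p = 0.0464), and its change of -0.54 ± 0.12 against tamoxifen did not pass (edgeR adjusted p = 0.118). The call against control was kept in 7 of 20 alternative settings, and was lost without any one library other than tamoxifen+primidone replicate 3, at an edgeR adjusted p of up to 0.139. The summed uterine epithelium markers given with Abca3 lay in the same order, and their part was not tested.

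Tap1 and Tap2 form the peptide transporter that loads MHC class I. Tap1 averaged 63.6 ± 22.1 CPM in tamoxifen+primidone and 66.9 ± 19.8 CPM in tamoxifen uteri, against 68.8 ± 9.69 CPM in control uteri, and Tap2 averaged 63.0 ± 8.97, 71.6 ± 8.1 and 70.7 ± 7.34 CPM in the same groups (SD, n = 3 each). Neither passed in any comparison, and of 15 partners in MHC class I loading 0 passed.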
